A study of Rattus norvegicus with 18 samples.

Results

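Bufalin and periplocin, 2 steroid poisons of the sodium and potassium pump, were compared with each other at the level of RNA in rat H9c2 cells. The comparison covers the 10608 genes, of 17455 listed, whose mean level reached 10 normalized counts in the table of each compound. Normalized counts are read counts divided by a scaling factor of each library. H9c2 is a myoblast line from rat heart, labelled wild type, and all its groups were of that 1 line. The 3 conditions, control, bufalin and periplocin, each had 3 input libraries of total RNA and 3 libraries pulled down with an m6A antibody, 18 in all. Dose, time and vehicle are not in the labels, so a match of dose between the compounds is not known. Separate cultures are not named for the replicates in the labels, and p-values then measure only the spread between these samples.

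Both compounds belong to the cardiotonic steroids, which bind the Na/K-ATPase and stop it from exporting sodium in exchange for potassium. Cells then gain sodium and lose potassium, calcium rises through sodium and calcium exchange, and immediate early genes, which need no new protein for their induction, are a known part of the response. Bufalin, from toad venom, is a bufadienolide with a lactone ring of the pyrone type and no sugar, and periplocin, from the root bark of a Periploca vine, is a cardenolide with a butenolide ring and a chain of sugars. These differences of structure are given as background only, and the data do not separate them from dose.

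Each compound had been set against the control cells by the authors, and only these comparisons, with no value per library, were analysed here. The level of a gene in control, bufalin and periplocin cells was worked out from its mean and its fold change. Because both comparisons share the control cells, the difference of their log2 changes, bufalin minus periplocin, holds no error from the controls. Its standard error (SE) was rebuilt from those of the authors, and its p-value is that of a Wald test adjusted by Benjamini-Hochberg (BH) over all 10608 genes. A negative difference means more RNA with periplocin. Values are taken as levels of bulk RNA, where fewer cells of a type and less RNA per cell cannot be told apart. Whether they rest on input or on pulled-down libraries is not stated in labels or headers.

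The labelled cell type was checked against markers. Of 10 skeletal myoblast markers 7 had a mean of at least 10, with Myod1, Cdh15 and Des among them and Myf5 at 0, and of 10 cardiomyocyte markers 7, with Actc1 at 0 and Ryr2 and Nppa under 10. Smooth muscle or fibroblast markers reached it in 9 of 10, endothelial in 3 of 8, leukocyte in 2 of 8 and epithelial in 1 of 8. The summed level of the smooth muscle or fibroblast markers was 591851 normalized counts in control cells, 634962 with bufalin and 592019.9 with periplocin. Most of that sum was the collagen Col1a1, and over the 9 measured genes the median difference was -0.05, with 6 below 0. Endothelial markers summed to 692, 618 and 609.8 in that order, leukocyte markers to 90.9, 121 and 99.8, and epithelial markers to 1057, 1143 and 1140.4.

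Between the compounds, 42 genes differed at an adjusted p of 0.05, which is 0.396% of the genes tested. Of these, 31 (0.292% of the genes tested) were higher with periplocin and 11 (0.104%) were higher with bufalin. The genes higher with periplocin included the transcription factors Myc, Klf6, Fosl1 and Fosl2, the phosphatase Dusp1, the peptide precursor Edn1 and the junction protein Amotl2. Those higher with bufalin were led by the noncoding RNA H19 and the myosin Myh1. Most differences were small: 12 of the 42 exceeded 1.5-fold, and over the 42 they ran from 1.11-fold to 2.67-fold.

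For the 31 genes higher with periplocin the authors had called 20 in the periplocin comparison and 2 in that of bufalin. In 26 of the 31 the periplocin change from control was the larger of the pair, 30 stood above control with periplocin and 5 with bufalin. Of the 11 genes higher with bufalin, all stood above control with bufalin and 3 with periplocin, and the bufalin change was the larger in 9. The counts above control are partly fixed by the selection, since the genes were picked by the gap between the compounds. No call of the authors in either table had been made for 17 of the 42 genes. An adjusted p was missing in the bufalin table for 14 of the 42, of which 13 were higher with periplocin.

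A limit of this test is the rebuilt standard error. With an upper limit in its place, as if each compound had its own controls, 8 genes passed: Amotl2, Dusp1, Edn1, H19, Klf6, Myc, Myh1 and Vof16. In another setting the spread of each gene was kept at or above the median of genes of like mean. Of the differing genes 31 then passed and 11 did not, and these 11 are named in the last section.

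**Figure D1:**
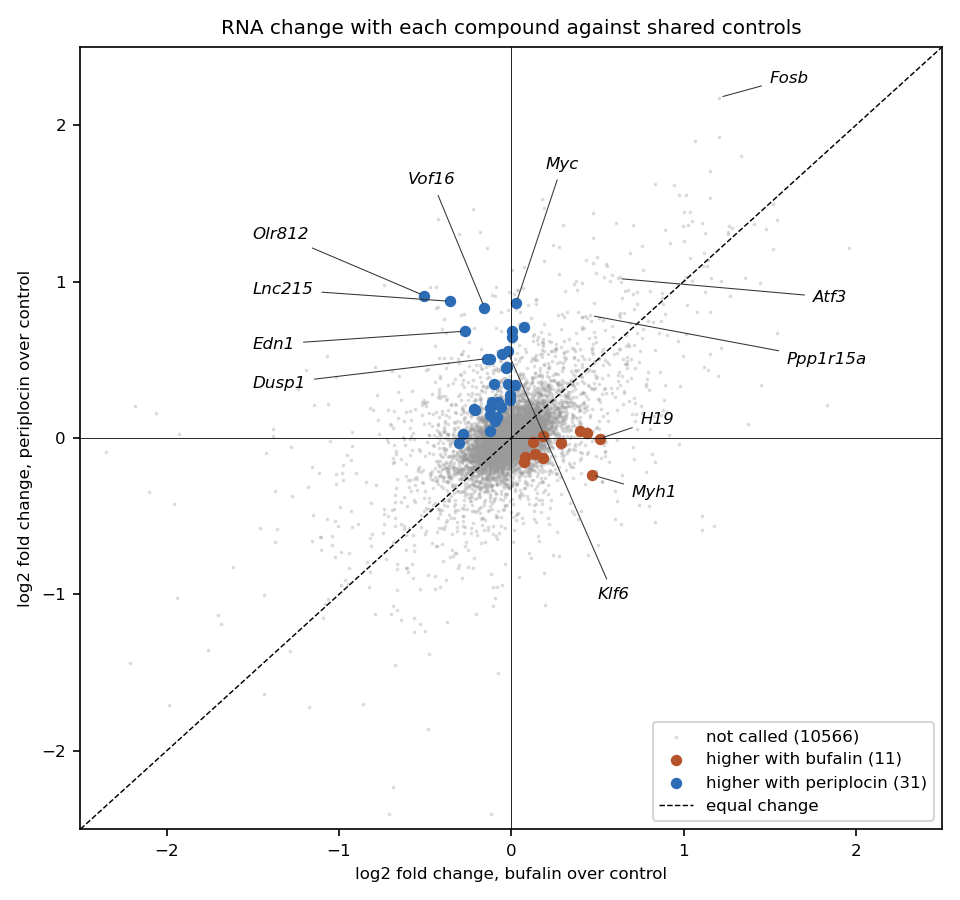
Log2 fold change with bufalin (horizontal) against that with periplocin (vertical), both over the same control cells, for each gene; coloured points mark the 42 genes that differed at an adjusted p of 0.05, and 9 genes lie outside the axes. The 31 genes higher with periplocin lie above the dashed line of equal change, most of them near 0 on the bufalin axis and some, such as Olr812 and Edn1, to the left of it, and H19 and Myh1 lie to the right near or below 0 on the periplocin axis. Because the control cells are shared, the slope of the cloud is no measure of likeness.

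Of the 31 genes higher with periplocin, 4 came from the lists of AP-1 subunits and of other immediate early transcription factors. These and all other lists here were chosen with earlier results of these data known, so a lean of a list is no independent evidence. Over all genes 0.396% differed and 49.3% had a negative difference, and each list is to be read beside these shares. Myc, a growth-promoting factor, stood at 976 normalized counts in control cells, 995 with bufalin and 1777 with periplocin. Bufalin cells were thus near control cells, at a log2 change of 0.03 ± 0.13 (SE) in the authors' deposited table, and periplocin cells were apart from both. The difference between the compounds was -0.84 ± 0.12 (SE, log2), or 1.78-fold (95% interval 1.51 to 2.11) more Myc RNA with periplocin, with a BH-adjusted p of 5.43e-08. In Klf6, a zinc finger factor induced by injury and growth signals, periplocin cells were again apart from the other groups. Klf6 stood at 5753 normalized counts in control cells, 5668 with bufalin and 8449 with periplocin. Its RNA was 1.49-fold (95% interval 1.33 to 1.67) higher with periplocin than with bufalin (Wald test, BH-adjusted p = 3.73e-08).

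The AP-1 subunits Fosl1 and Fosl2, which pair with Jun proteins, were also higher with periplocin. For Fosl1 the levels were 909.6 in control cells, 958 with bufalin and 1487 with periplocin, and the difference was -0.63 ± 0.13 (SE, log2; Wald test, BH-adjusted p = 0.00117). Fosl2 stood at 4078 in control cells, 4018 with bufalin and 5188 with periplocin, with a difference of -0.37 ± 0.08 (Wald test, BH-adjusted p = 0.00428). Of 13 measured (14 listed) AP-1 subunits these were the 2 that differed, 11 had a negative difference, and the median was -0.24 beside 0.00 over all genes.

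Fosb, the AP-1 subunit with the largest fitted gap, was not shown to differ. Its levels were 166 normalized counts in control cells, 382 with bufalin and 748 with periplocin, and its difference of -0.97 ± 0.31 had an interval of -1.57 to -0.37 and a BH-adjusted p of 0.170. Atf3, a stress-induced factor of the same family, stood at 389 in control cells, 597 with bufalin and 789 with periplocin, with an interval of -0.89 to 0.08. For Fos and Jun the differences were -0.40 ± 0.45 and -0.24 ± 0.20 (SE, log2). In these 4 genes both treated groups stood above control, periplocin cells more so than bufalin cells, and the intervals of Atf3, Fos and Jun included 0.

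The other immediate early transcription factors had a median of -0.17 over 23 measured genes of 24 listed, with 18 below 0 and 2, Myc and Klf6, that differed. At an unadjusted p under 0.05, 10 of the 23 were lower with bufalin and 0 higher, where over all genes 343 (3.23%) were lower and 329 (3.1%) higher. Csrnp1 stood at -0.38 ± 0.11, Egr1 at -0.87 ± 0.39 and Klf4 at -0.33 ± 0.13 (SE, log2), none past the adjusted threshold. Egr1, a zinc finger factor that responds to many stimuli, was at 5229 in control cells, 5011 with bufalin and 9147 with periplocin, and its standard error compares with a median of 0.06 over the 20% of genes with the highest levels.

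A list of genes known from other cells to respond to a raised ratio of sodium to potassium had 22 measured members of 24 listed symbols. None of them differed at the adjusted threshold, by the BH-adjusted Wald test. At an unadjusted p under 0.05, 7 (31.8%) were lower with bufalin and 0 higher, beside 3.23% and 3.1% of all genes. The median was -0.19, and 19 of 22 had a negative difference. Ptgs2, the inducible cyclooxygenase, was at 1739.5 in control cells, 1775 with bufalin and 3083 with periplocin, a difference of -0.80 ± 0.28 with an interval of -1.35 to -0.24. This list shares members with those of AP-1 and of the other immediate early factors. Like them, it was chosen with earlier results of these data known.

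Dusp1, a nuclear phosphatase that switches off MAP kinases, stood at 4744 normalized counts in control cells, 4309 with bufalin and 6747 with periplocin. It was 1.57-fold (95% interval 1.36 to 1.80) higher with periplocin than with bufalin (Wald test, BH-adjusted p = 3.23e-07). Among 14 measured (16 listed) MAP kinase phosphatases and feedback inhibitors it was the 1 gene that differed, and the list's median was -0.06. Trib1, a pseudokinase that directs proteins to degradation, was at 771 in control cells, 709 with bufalin and 1095 with periplocin, a difference of -0.63 ± 0.13 (SE, log2; Wald test, BH-adjusted p = 0.00117). Cited2, a coregulator that binds CBP and p300, was at 13164 in control cells, 13105 with bufalin and 15918 with periplocin and differed by -0.28 ± 0.06 (Wald test, BH-adjusted p = 0.000557).

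The promoters of Dusp1 and Klf6 show motifs of 2 kinds known in immediate early genes. Each is given as the 250 bases before the start site, 5′ to 3′ in the direction of the gene, from RefSeq in build GRCr8. In Dusp1, at chr10:17184603-17184852 (+ strand), capitals mark the cAMP response element TGACGTCA, which ends 116 bases before the start, and its shorter core TGACG, which ends 167 bases before it. In Klf6, at chr17:69458479-69458728 (- strand), capitals mark a CArG box, the motif bound by serum response factor, which ends 191 bases before the start.
Dusp1: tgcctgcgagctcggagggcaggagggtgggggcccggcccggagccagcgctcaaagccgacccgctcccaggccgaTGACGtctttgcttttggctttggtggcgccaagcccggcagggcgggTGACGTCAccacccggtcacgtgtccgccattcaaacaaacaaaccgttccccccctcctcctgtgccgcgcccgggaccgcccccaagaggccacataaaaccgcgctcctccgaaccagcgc
Klf6: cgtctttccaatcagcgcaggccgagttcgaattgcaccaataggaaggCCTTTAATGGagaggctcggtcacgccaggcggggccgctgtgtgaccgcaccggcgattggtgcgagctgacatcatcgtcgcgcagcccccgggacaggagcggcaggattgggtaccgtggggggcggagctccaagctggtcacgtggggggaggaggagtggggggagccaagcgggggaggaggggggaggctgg
A match of letters is a description and shows no binding.

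Targets of the YAP and TEAD regulators of the Hippo pathway came next. Amotl2, a scaffold of cell junctions that binds YAP, stood at 32189 normalized counts in control cells, 31620.4 with bufalin and 44019.8 with periplocin. It was 1.39-fold (95% interval 1.29 to 1.51) higher with periplocin than with bufalin, and the BH-adjusted p of 9.37e-13 was the second smallest of all genes. Ccn2, a matricellular growth factor modulator, was at 136309 normalized counts in control cells, 112298 with bufalin and 138658 with periplocin, so that here bufalin cells stood apart, below the other groups. Its difference was -0.30 ± 0.07 (SE, log2; Wald test, BH-adjusted p = 0.00422).

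Over 13 measured (16 listed) YAP and TEAD targets the median difference was -0.16, and Amotl2 and Ccn2 were the 2 that differed. Below 0 lay 10 (76.9%), beside 49.3% of all genes. An unadjusted p under 0.05 was seen in 4 (30.8%), all lower with bufalin, beside 3.23% of all genes. Ankrd1, a nuclear and sarcomeric ankyrin repeat protein, stood at -0.20 ± 0.07, Crim1 at -0.16 ± 0.07 and Ccn1 at -0.20 ± 0.19, none past the adjusted threshold. Thbs1, the matrix glycoprotein thrombospondin 1, was at 120299 in control cells, 114008 with bufalin and 141164 with periplocin and 1.24-fold (95% interval 1.14 to 1.34) higher with periplocin than with bufalin (Wald test, BH-adjusted p = 0.000188). Sparc, another matricellular protein, was at 0.17 ± 0.05 and Spp1, which encodes osteopontin, at 0.40 ± 0.12, and neither passed. Of 14 measured (16 listed) matricellular genes 2 were higher with periplocin, Thbs1 and Ccn2, and 1, Tgfbi, with bufalin.

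The promoters of Amotl2 and Ccn2 are given to show the TEAD motif GGAATG, again with the 250 bases before the start from RefSeq in GRCr8. In Amotl2, at chr8:112182376-112182625 (+ strand), the motif lies once and on the reverse strand, 70 bases before the start, where it reads CATTCC. In Ccn2, at chr1:22624615-22624864 (- strand), it lies 3 times, ending 160, 95 and 86 bases before the start, and the last capitals mark a TATA box, 25 bases before the start.
Amotl2: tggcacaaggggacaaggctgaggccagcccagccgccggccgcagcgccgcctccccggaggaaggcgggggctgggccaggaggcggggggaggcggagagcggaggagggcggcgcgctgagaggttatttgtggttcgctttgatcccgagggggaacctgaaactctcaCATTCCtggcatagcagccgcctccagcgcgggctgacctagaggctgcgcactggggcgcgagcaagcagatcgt
Ccn2: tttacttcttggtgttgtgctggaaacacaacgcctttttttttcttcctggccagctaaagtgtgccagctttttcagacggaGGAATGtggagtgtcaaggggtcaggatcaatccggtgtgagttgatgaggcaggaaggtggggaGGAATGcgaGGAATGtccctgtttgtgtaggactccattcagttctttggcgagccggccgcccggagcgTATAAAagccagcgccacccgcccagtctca

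Secreted peptides and cytokines differed in a few members. Edn1, the precursor of the vasoconstrictor endothelin 1, was at 670.0 normalized counts in control cells, 557 with bufalin and 1076 with periplocin. Bufalin cells were lowest and periplocin cells highest, and the gap was 1.93-fold (95% interval 1.57 to 2.37) (Wald test, BH-adjusted p = 4.20e-07). Inhba, which encodes the activin A subunit, stood at 3850.2 in control cells, 3534 with bufalin and 4394 with periplocin and differed by -0.31 ± 0.06 (SE, log2; Wald test, BH-adjusted p = 0.000817). For Bmp4, a bone morphogenetic protein, the levels were 5233 in control cells, 5215 with bufalin and 6193 with periplocin, with a difference of -0.25 ± 0.06 (Wald test, BH-adjusted p = 0.0235).

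Of 5 measured (13 listed) vasoactive and natriuretic peptide genes, Edn1 was the 1 that differed. The median was -0.26, and only 1 of the 5 was bounded within 1.5-fold. Nlrp3, the sensor of an inflammasome, stood at 261 in control cells, 262 with bufalin and 419.7 with periplocin, a difference of -0.68 ± 0.18 (SE, log2; Wald test, BH-adjusted p = 0.0313). Sphk1, which makes the lipid mediator sphingosine 1-phosphate, was at 1077 in control cells, 1004 with bufalin and 1369.8 with periplocin, a difference of -0.45 ± 0.12 (Wald test, BH-adjusted p = 0.0391). Of 15 measured (21 listed) inflammatory cytokines and NF-kappaB targets 0 differed by the BH-adjusted Wald test, and the median was -0.15. At an unadjusted p under 0.05 stood 6 (40%), 5 of them lower with bufalin, beside 6.33% of all genes. The chemokines Cxcl1 and Cxcl12 stood at -0.53 ± 0.21 and -0.18 ± 0.05 there.

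The TGF-beta list was split. Tgfbi, a matrix protein induced by TGF-beta, was at 9039.7 normalized counts in control cells, 9958 with bufalin and 8434 with periplocin, on opposite sides of control. It was 1.18-fold (95% interval 1.11 to 1.26) higher with bufalin than with periplocin (Wald test, BH-adjusted p = 0.000246). Ltbp2, a matrix protein of the family that binds latent TGF-beta, was at 6752 in control cells, 8238 with bufalin and 6619 with periplocin and differed by 0.32 ± 0.08 (SE, log2; Wald test, BH-adjusted p = 0.0114). Tgfb3, a ligand of the pathway, went the other way at 6777 in control cells, 5493 with bufalin and 6618 with periplocin, a difference of -0.27 ± 0.06 (Wald test, BH-adjusted p = 0.00668).

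With Ccn2, this made 2 genes higher with each compound among 21 measured (23 listed) TGF-beta ligands and targets, and the median was 0.03. The 16 measured (22 listed) collagens and integrins held 0 differing genes by the BH-adjusted Wald test. All 16 were bounded within 1.5-fold, beside 77.9% of all genes. Of the 16, 2 (12.5%) had an unadjusted p under 0.05, beside 6.33% of all genes, and 14 lay above 0 with a median of 0.05.

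H19, an imprinted long noncoding RNA that is abundant in muscle precursors, gave the smallest p of the comparison. Its levels were 12795 normalized counts in control cells, 18256 with bufalin and 12763 with periplocin, so that control and periplocin cells were close to each other and bufalin cells stood above both. The gap was 1.43-fold (95% interval 1.35 to 1.52), with a BH-adjusted p of 2.11e-26. Igf2, the imprinted growth factor gene beside H19, stood at 0.55 ± 0.35, an interval of -0.14 to 1.24 that includes 0. Of 12 measured (20 listed) imprinted genes H19 alone differed, and the median of the list was 0.08.

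Myh1, the fast skeletal myosin heavy chain of type IIx fibres, stood at 1950.3 normalized counts in control cells, 2696 with bufalin and 1656 with periplocin. The changes from control were 0.47 ± 0.11 with bufalin and -0.24 ± 0.11 with periplocin (SE, log2) in the authors' deposited table, with unadjusted p-values under 0.05 on both sides and opposite signs. The compounds differed by 1.63-fold (95% interval 1.40 to 1.89) with a BH-adjusted p of 3.23e-07. The neighbouring fast myosin genes leaned the same way, Myh2 at 0.88 ± 0.28 with an interval of 0.33 to 1.43 and Myh4 at 0.62 ± 0.32 with an interval of -0.00 to 1.23, and neither passed the adjusted threshold. These genes are near-identical in parts, and how reads were split between them is not stated in the labels, so their levels are uncertain.

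Other sarcomere genes lay on both sides of 0. Acta1, skeletal muscle actin, stood at 0.38 ± 0.19 and Myh8, a perinatal myosin, at 0.55 ± 0.38 (SE, log2), in the direction of Myh1 and not past the adjusted threshold. Tnnt2 and Tnnc1, cardiac troponins, stood at -0.29 ± 0.09 and -0.26 ± 0.10 (SE, log2), and over 22 measured (27 listed) sarcomere genes the median was -0.05, with 15 below 0 and 7 above. At an unadjusted p under 0.05, 3 of the 22 were higher with bufalin and 2 with periplocin, beside 3.1% and 3.23% of all genes. Tpm1, a tropomyosin of muscle and of the stress fibres of other cells, was at 53689.5 in control cells, 49307 with bufalin and 55493 with periplocin and differed by -0.17 ± 0.04 (Wald test, BH-adjusted p = 0.00668). Among 7 measured (14 listed) myogenic regulators 0 differed by the BH-adjusted Wald test, 2 had an unadjusted p under 0.05, and Myod1 stood at 0.27 ± 0.13. Beside these values, the summed level of the skeletal myoblast markers was 7764 normalized counts in control cells, 8685 with bufalin and 7365 with periplocin. Myh1 alone held 1950, 2696 and 1656 of these, most of the gap between the compounds, so the sum is no separate evidence. The cardiomyocyte markers summed to 5431, 4862 and 5784, most of it Tnnt2. The part of a shift in cell state in the Myh1 result was not tested.

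The promoter of Myh1 at chr10:52384662-52384911 (+ strand) in GRCr8 is given from RefSeq because Myh1 had the largest gap of the genes higher with bufalin. Capitals mark a TATA box that ends 27 bases before the start, a TATA motif on the reverse strand that ends 203 bases before it, and a TEAD motif that ends 11 bases before it.
Myh1: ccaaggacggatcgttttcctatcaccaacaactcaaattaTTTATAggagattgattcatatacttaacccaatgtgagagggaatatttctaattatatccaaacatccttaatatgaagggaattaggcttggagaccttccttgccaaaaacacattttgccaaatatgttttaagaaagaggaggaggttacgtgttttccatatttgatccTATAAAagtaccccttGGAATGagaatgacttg

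**Figure D2:**
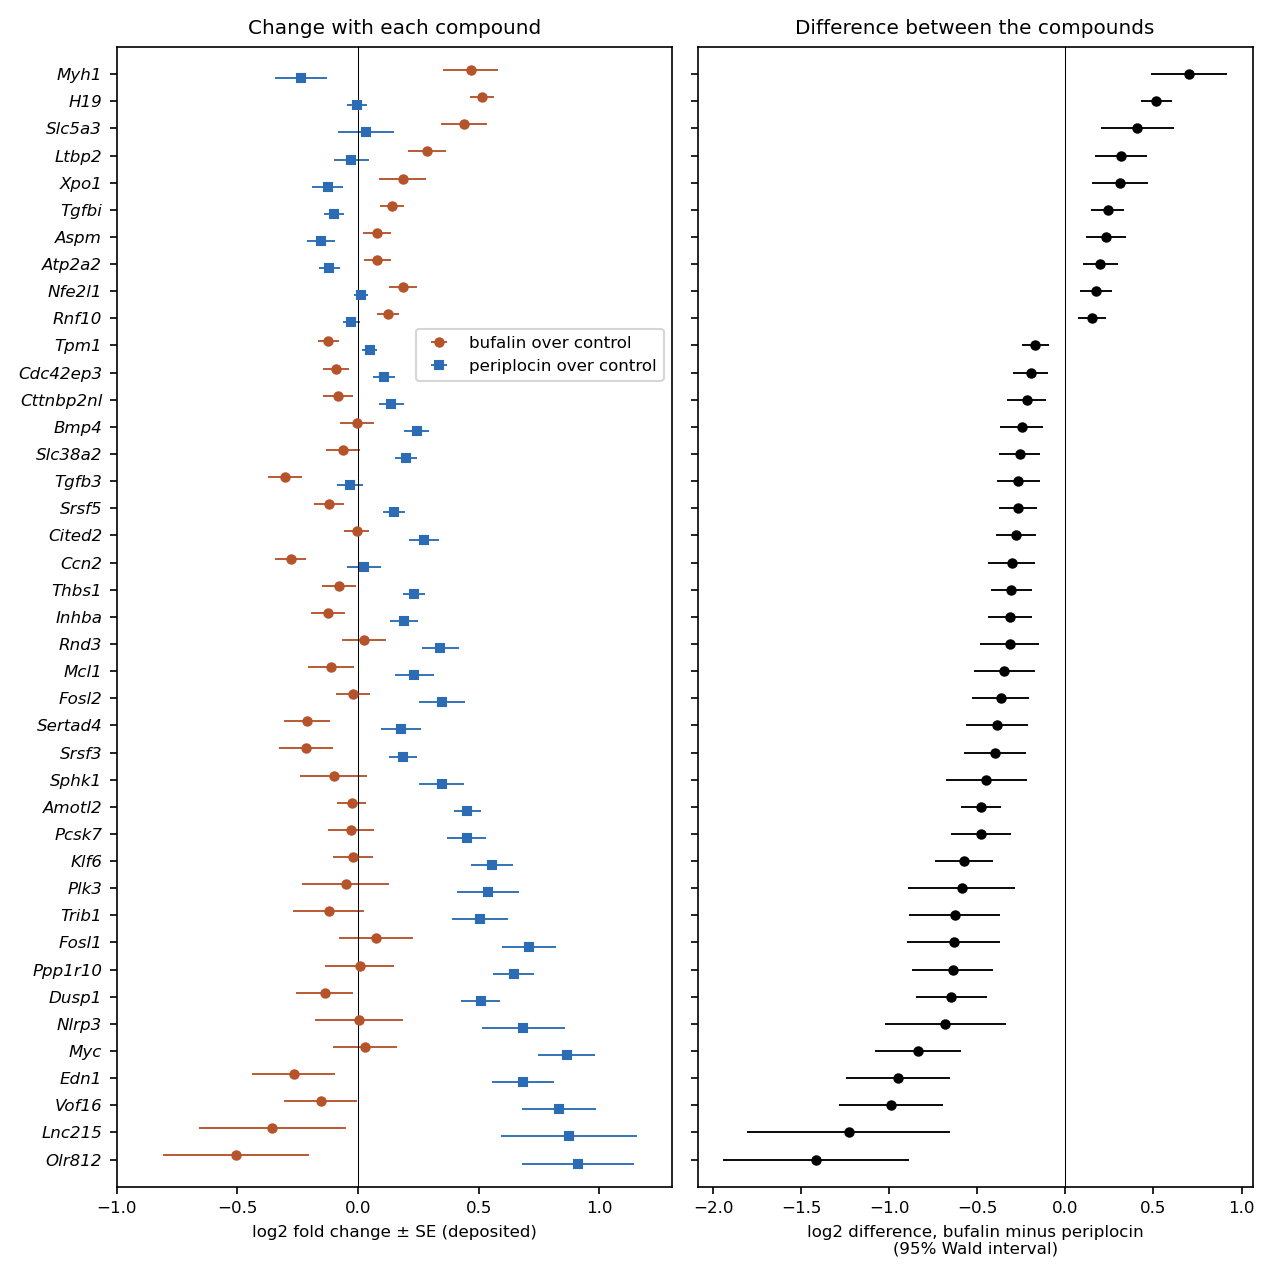
Of the 42 genes that differed between the compounds, the 41 described here, ordered by their difference; the left panel gives each compound's log2 fold change over control with its SE as deposited, and the right panel the difference with its 95% Wald interval. Most genes in the lower part have the bufalin point near 0 and the periplocin point to its right, and Tgfb3 and Ccn2 have the periplocin point near 0.

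Calcium handling and transport contributed 3 genes. Atp2a2, the calcium pump of the sarcoplasmic and endoplasmic reticulum, was at 19269 normalized counts in control cells, 20351 with bufalin and 17738 with periplocin, a difference of 0.20 ± 0.05 (SE, log2; Wald test, BH-adjusted p = 0.0260). It was the 1 differing gene of 22 measured (27 listed) calcium handling genes, whose median was 0.00. With the spread kept at or above the median of genes of like mean, Atp2a2 did not pass (Wald test, BH-adjusted p = 0.0669). Slc5a3, which carries the osmolyte myo-inositol into cells together with sodium, was at 917 in control cells, 1243 with bufalin and 937 with periplocin and differed by 0.41 ± 0.11 (Wald test, BH-adjusted p = 0.0349). Slc38a2, a sodium-coupled carrier of small neutral amino acids, went the other way at 28267 in control cells, 27089 with bufalin and 32436 with periplocin, a difference of -0.26 ± 0.06 (Wald test, BH-adjusted p = 0.00668).

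The 11 measured (12 listed) genes of osmolyte transport and the Nfat5 response held these 2 differing carriers, 1 in each direction. An unadjusted p under 0.05 was seen in 6 (54.5%), 3 in each direction, beside 6.33% of all genes, and the median of the list was -0.01. Nfat5, the factor that controls osmolyte carriers in hypertonic stress, was nearly equal with both compounds, at 13556 in control cells, 15549.8 with bufalin and 15686 with periplocin, and its difference of -0.01 ± 0.05 had an interval of -0.12 to 0.09. Of the pump itself, the target of both compounds, 6 of 13 listed subunits and regulators were measured and 0 differed by the BH-adjusted Wald test, also at an unadjusted p under 0.05. Atp1b1 and Atp1b3, beta subunits, had intervals of the log2 difference of -0.19 to 0.05 and -0.07 to 0.19. The interval of Atp1b2, a beta subunit at a lower level, was wide, -0.75 to 1.06.

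RNA processing and survival genes were also among those that differed. The splicing factors Srsf3 and Srsf5 were higher with periplocin, at -0.40 ± 0.09 and -0.27 ± 0.05 (SE, log2; Wald test, BH-adjusted p of 0.00410 and 0.000459). Srsf5 stood at 7316 in control cells, 6729 with bufalin and 8114 with periplocin, on opposite sides of control. Ppp1r10, a nuclear targeting subunit of protein phosphatase 1, was at 1308 in control cells, 1313 with bufalin and 2045 with periplocin and differed by -0.64 ± 0.12 (Wald test, BH-adjusted p = 5.47e-05). Xpo1, the main nuclear export receptor, was higher with bufalin at 8716 in control cells, 9905 with bufalin and 7992 with periplocin, a difference of 0.31 ± 0.08 (Wald test, BH-adjusted p = 0.0443).

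Mcl1, a short-lived survival protein of the Bcl2 family, was at 2453 in control cells, 2269 with bufalin and 2883 with periplocin, a difference of -0.35 ± 0.09 (SE, log2; Wald test, BH-adjusted p = 0.0264). Plk3, a stress kinase and p53 target, stood at 971 in control cells, 937 with bufalin and 1409.5 with periplocin, a difference of -0.59 ± 0.16 (Wald test, BH-adjusted p = 0.0400). It was the 1 differing gene of 17 measured (19 listed) p53 targets, whose median was -0.08. Mdm2, the ligase of p53, stood at -0.16 ± 0.15 there, with an interval of -0.45 to 0.13.

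Genes of the cytoskeleton and of cell division followed. Rnd3, a GTPase that loosens stress fibres, was at 15328 in control cells, 15585 with bufalin and 19419 with periplocin and differed by -0.32 ± 0.08 (SE, log2; Wald test, BH-adjusted p = 0.0454). Cdc42ep3, an effector of the GTPase Cdc42, stood at -0.20 ± 0.05 and Cttnbp2nl, a partner of cortactin, at -0.22 ± 0.06 (Wald test, BH-adjusted p of 0.0276 and 0.0318), both higher with periplocin. Aspm, a protein of spindle poles, was higher with bufalin at 5138 in control cells, 5419 with bufalin and 4621 with periplocin, a difference of 0.23 ± 0.06 (Wald test, BH-adjusted p = 0.0288). Of 38 measured (39 listed) cell cycle and DNA replication genes, a list without Aspm, 0 differed by the BH-adjusted Wald test, and the median was 0.03. An unadjusted p under 0.05 was seen in 3 (7.89%), beside 6.33% of all genes.

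The remaining genes were of mixed kinds. Nfe2l1, the factor that induces proteasome genes, was higher with bufalin at 40924 in control cells, 46524 with bufalin and 41277 with periplocin, and Rnf10, a ubiquitin ligase, at 14613 in control cells, 15922 with bufalin and 14335 with periplocin. Their differences were 0.17 ± 0.05 and 0.15 ± 0.04 (SE, log2), with BH-adjusted p of 0.0455 and 0.0454, the smallest gaps among those higher with bufalin. Pcsk7, a proprotein convertase, was higher with periplocin at 1327 in control cells, 1301 with bufalin and 1813 with periplocin, a difference of -0.48 ± 0.09 (Wald test, BH-adjusted p = 5.51e-05). Sertad4 stood at 2133 in control cells, 1843 with bufalin and 2415 with periplocin, on opposite sides of control, with a difference of -0.39 ± 0.09 (Wald test, BH-adjusted p = 0.00668).

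Among the 42 genes the 3 largest differences were in Olr812, Lnc215 and Vof16. Olr812, annotated as an olfactory receptor gene, was at 104 normalized counts in control cells, 73.0 with bufalin and 195 with periplocin, or 2.67-fold (95% interval 1.85 to 3.85) more with periplocin than with bufalin (Wald test, BH-adjusted p = 0.000151). It was also the least abundant of the 42. The long noncoding RNAs Lnc215 and Vof16 stood at 1948 in control cells, 1523 with bufalin and 3571 with periplocin and at 587 in control cells, 527 with bufalin and 1047 with periplocin. Their gaps were 2.34-fold (95% interval 1.57 to 3.50) and 1.98-fold (95% interval 1.62 to 2.44), with BH-adjusted p of 0.0114 and 1.22e-07. Both lie on chromosome 8 with 5 genes listed between them in GRCr8, and their m6A peaks in the periplocin list lie 6508 bases apart on the same strand in rn6. Whether these 2 RNAs share reads was not tested.

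Myh1, Tgfbi, Sertad4 and Srsf5 were the 4 genes, of all 10608, with an unadjusted p under 0.05 in both of the authors' deposited tables and opposite signs of change. All 4 were among the 42, which the selection nearly fixes, since opposite changes from shared controls add up in the difference. Over all 10608 genes, 4366 (41.2%) had a difference bounded within 1.2-fold. With an unadjusted p under 0.05 and the same sign in both tables, 92 genes were so bounded. Among the most abundant were Rpl13a, Naca, Dync1h1, Ubb and Clta, of which Rpl13a, a ribosomal protein, stood at 74449 in control cells, 84328 with bufalin and 79112 with periplocin and Dync1h1, the dynein heavy chain, at 40680.5 in control cells, 45292 with bufalin and 46938 with periplocin. Both changes in such a gene rest on the same control cells, so they are not independent.

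A call against control by the authors did not always go with a difference between the compounds. Of the 10 genes called with bufalin (0.301% of the 3321 with an adjusted p) 5 differed, among them H19, Myh1, Tgfb3 and Ccn2. The other 5 were Spp1, Cxcl12, Dnmt3a, Crebbp and Ncald. Dnmt3a, a DNA methyltransferase, stood at 5473 in control cells, 6710.1 with bufalin and 5828 with periplocin, a difference of 0.20 ± 0.06 (SE, log2; Wald test, BH-adjusted p = 0.107), and Crebbp, a histone acetyltransferase, had an interval of -0.01 to 0.25. Ncald, a calcium sensor, was below control with both compounds, at 2724 in control cells, 2163 with bufalin and 2354 with periplocin.

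With periplocin 67 genes were called, of which 60 were in this comparison (0.566% of the 10603 with an adjusted p), and 20 of the 60 differed. The difference was bounded within 1.2-fold in 15 of the 60 and within 1.5-fold in 34. Ubr4, a large ubiquitin ligase, stood at 18056 in control cells, 20293 with bufalin and 20444 with periplocin, with an interval of the difference of -0.10 to 0.08. Hspb1, a small heat shock protein, was below control with both, at 7646 in control cells, 6899 with bufalin and 6640.3 with periplocin. For Ppp1r15a, which ends the translation block of the stress response, the levels were 4836 in control cells, 6647 with bufalin and 8328 with periplocin, and the interval of -0.71 to 0.06 includes 0. For these genes neither a difference nor equality was shown, beyond the limits that each interval sets.

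**Figure D3:**
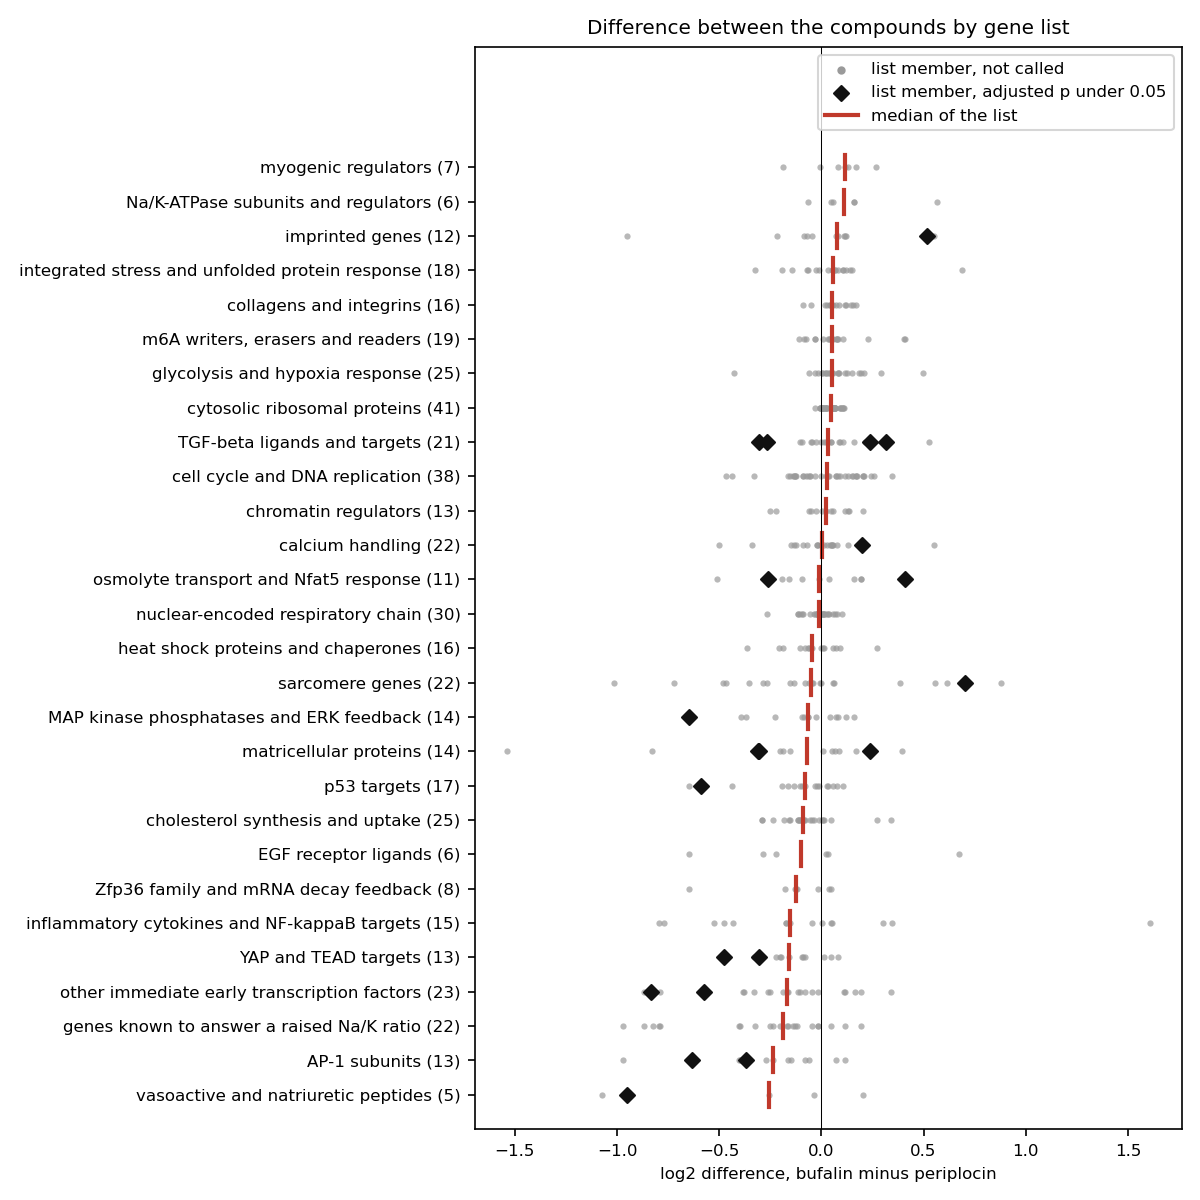
Log2 difference, bufalin minus periplocin, of every measured member of 28 gene lists (number of members in brackets), ordered by the list's median, which a red bar marks; black diamonds are genes that differed at an adjusted p of 0.05. The lowest medians are those of the vasoactive and natriuretic peptides at -0.26 and of the AP-1 subunits at -0.24. The former is imprecise: it rests on 5 genes, of which 1 was bounded within 1.5-fold. The housekeeping lists lie close to 0, as do several others.

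Several lists held no differing gene by the BH-adjusted Wald test. Over all genes compared, 6.33% had an unadjusted p under 0.05, 3.1% higher and 3.23% lower with bufalin. The 18 measured genes of the integrated stress and unfolded protein response had a median of 0.06 and 0 with an unadjusted p under 0.05. Heat shock proteins and chaperones stood at -0.05 over 16 of 18 listed genes, 4 of them with an unadjusted p under 0.05, such as Zfand2a, an arsenite-inducible gene, at -0.37 ± 0.12 (SE, log2). Cholesterol synthesis and uptake stood at -0.09 over 25 genes, 19 of them below 0 and 4 with an unadjusted p under 0.05, all lower with bufalin. Glycolysis and the hypoxia response stood at 0.05 over 25 of 29 listed genes, 21 of them above 0 and 1 with an unadjusted p under 0.05.

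The m6A machinery was measured in 19 of 23 listed genes, with a median of 0.05. At an unadjusted p under 0.05 stood 2 genes (10.5%), beside 6.33% of all genes compared. These were Alkbh5, a demethylase of m6A, at 1411 in control cells, 1768 with bufalin and 1334 with periplocin with a difference of 0.41 ± 0.13 (SE, log2), and Cbll1, a component of the writer complex, at 763 in control cells, 900.0 with bufalin and 679 with periplocin with 0.41 ± 0.12. Their BH-adjusted p were 0.163 and 0.137. Mettl3, the catalytic writer, was at 0.06 ± 0.08, Mettl14 at 0.11 ± 0.09 and Fto at 0.05 ± 0.07. The 13 measured (20 listed) chromatin regulators had a median of 0.02 and 5 (38.5%) with an unadjusted p under 0.05, 3 higher with bufalin and 2 lower. Among 8 genes of the Zfp36 family and mRNA decay feedback the median was -0.12, and 1 had an unadjusted p under 0.05. Of 6 measured (8 listed) EGF receptor ligands 1 did, with a median of -0.10.

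The housekeeping lists were bounded within 1.5-fold almost throughout, as were the collagens and integrins and the chromatin regulators. Most genes were so bounded too: 77.9% of all genes compared, and 98.1% of those above 3736 normalized counts. The lists were not tested against genes of like level. All 41 cytosolic ribosomal protein genes were bounded within 1.5-fold, 36 lay above 0, and the median was 0.05. The 30 nuclear-encoded respiratory chain genes had a median of -0.01, with 0 at an unadjusted p under 0.05 and 29 bounded within 1.5-fold. For ribosomal proteins 1 gene had an unadjusted p under 0.05.

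Over all 10608 genes the median difference was 0.00 on the log2 scale, the quartiles were -0.08 and 0.07, and the median standard error was 0.11. The 95% interval stayed within 1.5-fold in 8264 genes (77.9%) and within 1.2-fold in 4366 (41.2%). In the other 2344 genes it reached beyond 1.5-fold. Of the 42 differing genes, 24 were bounded within 1.5-fold, and in 16 the whole interval lay beyond 1.2-fold. An unadjusted p under 0.05, which a share near 0.05 of genes would reach with no difference at all, was seen in 672 genes (6.33%).

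The standard error fell with the level of a gene. In the lowest 20% of genes by level, under 199 normalized counts, the median standard error was 0.41, 1 gene differed and 8.15% were bounded within 1.5-fold. In the top 20%, above 3736 normalized counts, the median standard error was 0.06, 25 genes differed and 98.1% were bounded. Of 79 genes with a fitted gap over 2-fold, 2 passed, Olr812 and Lnc215. Moap1, a partner of the apoptosis protein Bax, did not pass at 1095 in control cells, 179 with bufalin and 1276 with periplocin, with a difference of -2.83 ± 1.13 (SE, log2) and a BH-adjusted p of 0.509. Its level was in the middle 20% of genes, where the median standard error was 0.11.

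**Figure D4:**
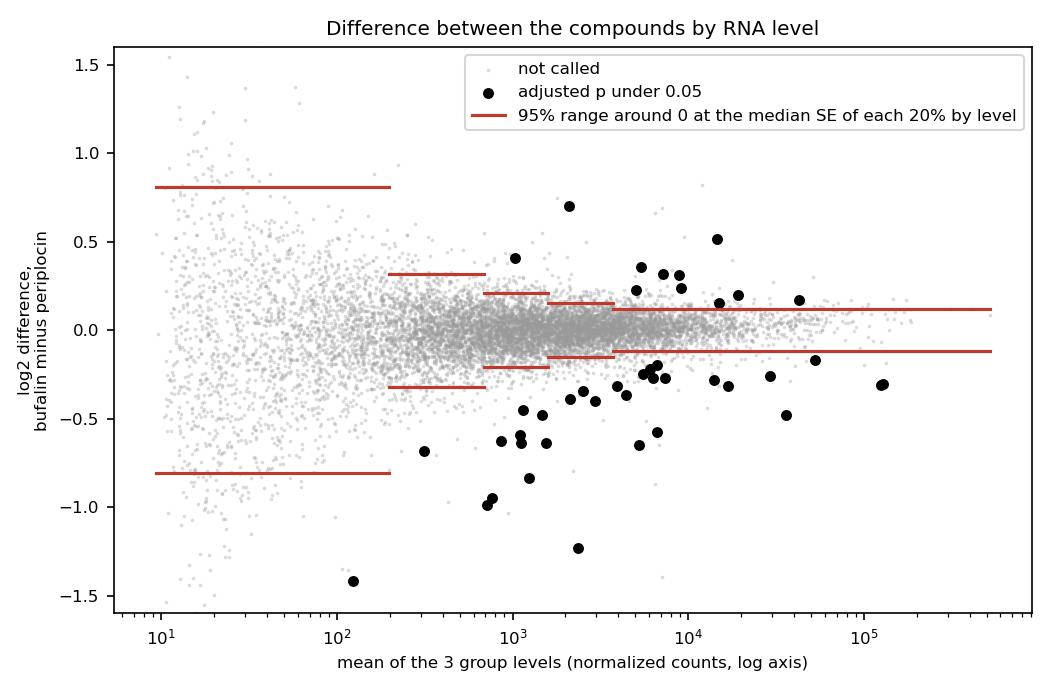
Log2 difference, bufalin minus periplocin, of each gene against the mean of its 3 group levels in normalized counts on a log axis; black points differed at an adjusted p of 0.05, red lines give the 95% range around 0 at the median SE of each 20% of genes by level, and 23 genes lie outside the axis. The scatter narrows from the lowest 20% (median SE 0.41) to the top 20% (0.06), which holds 25 of the 42 differing genes.

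At the edge of the rule, Tox and Mbp lay just inside the minimum of 10, with lower means of 10.01 in both and differences of 1.70 and 0.35. Just outside it lay Lrtomt and Fcgr3a, with lower means of 9.99 in both and differences of -0.70 and -0.98.

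Promoter windows of 300 bases, 250 before and 50 after the start, were matched for 8454 genes and for 36 of the 42. The full cAMP response element TGACGTCA was found in 1 of the 36 (2.78%), Dusp1, and in 3.41% of all windows. Its shorter core TGACG was in 13 (36.1%), beside 33.0% of all windows. The AP-1 motif TGANTCA was in 1 (2.78%), Myh1, beside 4.79%, and the CArG box in 2 (5.56%), Klf6 and Rnd3, beside 1.22%.

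The TATA box TATAAA was found in 8 of the 36 windows (22.2%), beside 6.53% of all windows. Those 8 were Myh1 and Rnf10, higher with bufalin, and Ccn2, Edn1, Inhba, Ppp1r10, Rnd3 and Srsf3, higher with periplocin. The TEAD motif GGAATG was in 8 (22.2%), beside 11.2%, in Amotl2, Bmp4, Ccn2, Sphk1, Thbs1 and Tpm1 of the one direction and Myh1 and Rnf10 of the other. The E-box CACGTG was in 5 (13.9%) beside 9.57%, and the Sp1 motif GGGCGG in 22 (61.1%) beside 63.7%. Motifs were searched on both strands, the core lies within the full element, and these shares were not tested.

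The m6A peaks, another readout of the same samples, were set beside the RNA differences. Peak positions, enrichments and changes are the authors' values, with 1 list per compound. Of the 42 genes, 34 (81.0%) had a peak in the bufalin list and 35 (83.3%) in the periplocin list, beside 48.2% and 45.9% of all genes compared. In the top 20% of genes by level 73.3% and 72.1% of genes had one, and of the 25 differing genes there 21 and 22. A peak stood in both lists for 34 genes and in neither for 7: Fosl2, Olr812, Plk3, Ppp1r10, Srsf3, Srsf5 and Thbs1.

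None of the 76 peaks of the bufalin list and 75 of the periplocin list on these genes had a change with a false discovery rate under 0.05 in the authors' deposited table, where 3 and 4 peaks did over all genes compared. The log2 changes of these peaks ran from -0.42 to 0.72 in the bufalin list and from -0.59 to 0.82 in the periplocin list, with a direction that is not stated. Their median size was 0.118 and 0.10, beside 0.119 and 0.123 over all peaks on the genes compared. Myc had 1 peak, at chr7:102590293-102590791 in rn6, in both lists, with an enrichment of 2.77-fold and 2.39-fold and log2 changes of 0.00 and -0.15. Neither labels nor headers state whether the RNA tables rest on input or pulled-down libraries.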

How the data were processed

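Total RNA of 18 H9c2 samples was read in 6 groups of 3 (input and pulled-down libraries of control, bufalin and periplocin), per the labels. Libraries carried unique molecular identifiers and kept the strand, per the labels' protocols. HISAT2, StringTie, DESeq and the rn6 build are named in the submitters' processing notes, without versions. Depth per library was not analysed here, so precision rests on the standard errors in the authors' tables.

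By its column name, the signal in the deposited tables is a mean of counts scaled by size factors. The log2 fold changes, the standard errors, the test score and the p-values are the authors' DESeq2 output, per the file headers and titles, and only the sign of the score was looked at. Peak values are the authors' fold enrichment (a ratio read as pulled-down over input), the log2 change and a score that the deposited list names as the log10 false discovery rate of the change.

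Genes with a mean of at least 10 in both tables were joined by name. Both fold changes were read as treated over control: only then did the control means of the tables coincide, to 1% or better in 10608 of 10608 genes, once shifted by 0.05 (log2, a factor of 1.03), beside 1047 to 1158 under the other readings. Levels in the periplocin table were multiplied by that factor. The score had the sign of the fold change in 12881 of 12881 bufalin genes and in 0 of 12913 periplocin genes, so signs come from the fold changes.

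A fit on counts per library had been planned for tables that hold them. With comparisons only, the spread of a gene beyond counting noise was worked out from each standard error, set equal in treated and control libraries and floored at 0. Spread and counting noise of both treated groups then give the error of the difference. The difference was tested by an approximate Wald test, adjusted by Benjamini-Hochberg. Its arithmetic was tested on simulated data drawn with known spreads, which does not check the assumption of equal spread. Intervals are 95% Wald intervals, for counting noise and the spread between libraries. Of the genes compared, 5 lacked a p in each deposited table, 0 of them among the 42.

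Named were all differing genes, genes the authors called, up to 5 genes per list with the smallest p, the pump subunits and m6A enzymes, and genes of shared or opposite sign. Some genes under this rule, 1 of the 42 differing genes among them, are counted but not reported here. The genes, the 28 lists, the 6 marker lists and the rule were chosen with earlier results of these data known. Names of 96.6% of the genes compared were found in the RefSeq table of GRCr8. Tools were Python 3.11.15, scipy 1.17.1, numpy 2.4.6, matplotlib 3.10.9 and pandas 2.3.3. Alternatives covered the standard error, the spread, centring, the minimum mean, the threshold, the peak set and the promoter window.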

Additional observations from a re-analysis of the deposited data

How the results depend on the processing

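The count of differing genes depended most on the standard error. With an upper limit that ignores the shared controls 8 genes passed in place of 42, 2 higher with bufalin and 6 higher with periplocin. At an adjusted p of 0.01, 25 passed, of which 3 were higher with bufalin (H19, Myh1 and Tgfbi). When the spread of a gene was kept at or above the median of genes of like mean, 31 of the 42 passed. Of these, 5 were higher with bufalin, among them H19, Myh1, Tgfbi and Ltbp2. The other 11 did not pass. Aspm, Atp2a2, Nfe2l1, Rnf10, Slc5a3 and Xpo1 among them were higher with bufalin. Cdc42ep3, Cttnbp2nl, Rnd3, Sphk1 and Tpm1 were higher with periplocin. Under the other settings tried, the spread averaged over both tables, centring and minimum means of 1, 50 and 200, the count ran from 38 to 43, and it was 55 at an adjusted p of 0.1. The count of genes bounded within 1.5-fold ran from 7380 to 8264. Of 67 list medians recomputed, 1 moved: the matricellular list stood at 0.05 with a minimum mean of 200 in place of -0.07. Among peaks of at least 2-fold enrichment, 42.9% (bufalin list) and 45.2% (periplocin list) of the 42 genes held one. With the 250 bases before the start only, the TEAD motif was in 6 of 36 windows in place of 8, beside 10.1% of all windows. No paired analysis was possible because the columns hold comparisons and no libraries, and for the same reason no replicate could be left out in turn. The spread of single libraries, dose and time did not enter the test, and the approximation takes the spread in control and treated cells as equal.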
